A study of Mus musculus with 8 samples.

Results

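The genes described here are 10 cytosolic heat shock proteins and small chaperones, Hspa1a, Hspa1b, Hspa4, Hspa8, Hsp90aa1, Hsp90ab1, Hspb1, Hspb7, Cryab and Dnajb1. They were found on the array by matching the RefSeq transcript of each probe to its gene symbol, a step that used no measured value. The list of genes itself was chosen with earlier results of these data known. Of the 10 symbols 9 had a probe, 14 probes in all of the 39429 on the array, while Hspa1b had none matched to it and is not analysed here. All 14 were well above background on each of the 8 arrays, so none was lost to the filter on dim probes that kept 35329. Gene expression was measured in the myocardium of male, untreated mice, with 3 arrays of NPRA-/- and 5 arrays of NPRA+/+ samples. The NPRA-/- mice carry a floxed gene for NPRA, the natriuretic peptide receptor A, whose loss the series title restricts to the heart. The sources used here do not give the Cre line, the mouse strain, the ages, or whether NPRA+/+ mice carry the floxed allele. All mice were killed under isoflurane and CO2 before the heart was removed. Because the samples were bulk tissue, fewer cells of a type and less RNA per cell cannot be told apart.

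Heat shock proteins are chaperones that hold, refold or pass on unfolded proteins. HSP70 proteins bind and release clients in an ATP cycle, J domain proteins such as Dnajb1 load the clients, exchange factors such as Hspa4 reset the cycle, and HSP90 proteins finish the folding of kinases and steroid receptors. Small heat shock proteins need no ATP and keep unfolded proteins soluble, and heart muscle, which has to maintain sarcomeres and intermediate filaments under load, expresses several of them at high levels. Cells under heat, oxidative or mechanical stress induce part of the family through heat shock factor 1.

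Levels below are log2 processed signals with each array's 75th percentile set to 0, so a level of 0 is the signal that 75% of spots lie under. They are compared between arrays for the same probe and never between probes. The 75th percentile itself lay between 775 and 1253 signal units. NPRA-/- replicate 1 and NPRA+/+ replicate 1 stood apart from the other arrays. They were scanned on days of their own (days 3 and 4), and their brightest probes reached further: the 99th percentile of the probes tested was at 6.22 in NPRA-/- replicate 1 and 6.03 in NPRA+/+ replicate 1, against 5.03 to 5.55 on the 6 other arrays. NPRA+/+ replicates 2 and 3 shared scan day 1 with NPRA-/- replicates 2 and 3, the only day that held both genotypes. By the slide numbers inferred here, those NPRA+/+ arrays were on slide 1 and those NPRA-/- arrays on slide 2. No slide held both genotypes, so a fit within scan day 1 cannot tell genotype from slide. The targeted gene, Npr1, had 1 probe, close to background (well above it on 2 of 3 NPRA-/- and 4 of 5 NPRA+/+ arrays), at -5.85 ± 0.50 (SD, n = 3) in NPRA-/- and -5.88 ± 0.66 (SD, n = 5) in NPRA+/+ (limma, adjusted p = 0.978). Its position relative to the floxed part was not analysed here, so it gives no check of the genotypes, which are named as labelled. The labels call the samples biological repetitions and name no animals, so the p-values rest on sample-to-sample spread that may be technical. The source names number NPRA+/+ replicates 1, 2 and 3 all as 1, and replicates 4 and 5 as 2 and 3. Whether the 5 NPRA+/+ arrays come from fewer sources cannot be told, and n counts arrays throughout.

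No chaperone probe passed the test of NPRA-/- against NPRA+/+ arrays. In the fit over all probes, limma called 0 of the 14 at an adjusted p under 0.05, where 0.348% of all probes tested were called. At an unadjusted p under 0.05 there was 1 member probe, of Hspa4, against 19.7% of all probes tested. For 0 of the 14 did the NPRA-/- arrays lie clear of the NPRA+/+ arrays, while 15.4% of all probes tested separated the genotypes in that way. The fitted log2 changes of the 14, NPRA-/- over NPRA+/+, had a median of 0.25. That median was 0.21 over all probes tested and 0.05 over the brightest 20% of them. Of the 14, 7 lay above the median of all probes tested. The precision of single probes varied widely, with standard errors from 0.14 to 0.96 and a median of 0.23, close to the median of 0.22 over all probes tested.

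**Figure D1:**
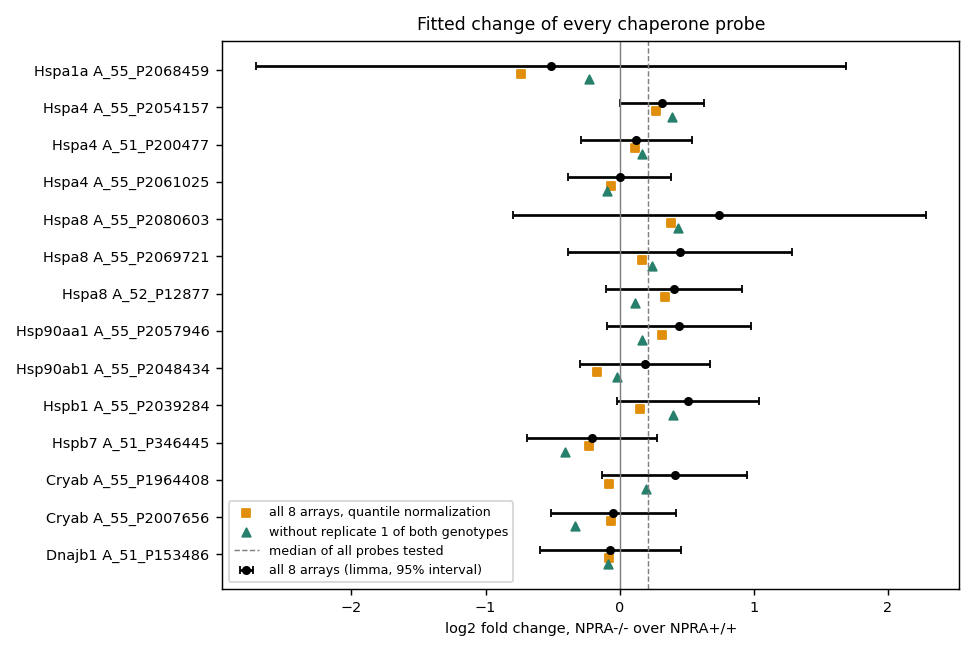
Fitted log2 fold change of each of the 14 chaperone probes, NPRA-/- over NPRA+/+: black points are limma estimates from all 8 arrays with 95% intervals, orange squares the same after quantile normalization, green triangles the fit without replicate 1 of both genotypes, the solid line marks 0 and the dashed line the median of all probes tested (0.21). No probe passed the threshold on all 8 arrays, and the widest interval, that of Hspa1a, ran from -2.71 to 1.69.

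Hspa1a encodes the stress-inducible HSP70 and was the member that varied most between arrays. Its level was -0.98, -2.29 and -2.59 in NPRA-/- replicates 1 to 3, against 1.63, -2.52, -2.67, -1.50 and -2.14 in NPRA+/+ replicates 1 to 5. NPRA+/+ replicate 1 lay above every other array, 8.77-fold over the next NPRA+/+ array, and NPRA-/- replicate 1 came second of all 8. The means were -1.95 ± 0.86 (SD, n = 3) in NPRA-/- and -1.44 ± 1.77 (SD, n = 5) in NPRA+/+, a fitted change of -0.51 ± 0.96 (SE; limma, adjusted p = 0.817). Without NPRA+/+ replicate 1 the fitted change was 0.25 ± 0.44 (adjusted p = 0.732), without replicate 1 of both genotypes -0.23 ± 0.34 (adjusted p = 0.690), and within scan day 1 it was 0.16 ± 0.15 (adjusted p = 0.492), so its sign followed the choice of arrays. The letters of the probe were not analysed here, and signal from Hspa1b, the near-identical neighbouring copy, cannot be told apart from that of Hspa1a.

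Of the member promoters available, those of both copies and of Hspb1 are shown, which are the ones that held a match in the search below. Heat shock factors are known to act on these genes through elements before their starts. Sequences are from RefSeq (GRCm38.p6), 250 bases before to 50 bases after the annotated start. Capitals mark a paired heat shock element, searched as GAANNTTC or TTCNNGAA, each of which reads the same on both strands.
Hspa1a, chr17:34972107-34972406, minus strand: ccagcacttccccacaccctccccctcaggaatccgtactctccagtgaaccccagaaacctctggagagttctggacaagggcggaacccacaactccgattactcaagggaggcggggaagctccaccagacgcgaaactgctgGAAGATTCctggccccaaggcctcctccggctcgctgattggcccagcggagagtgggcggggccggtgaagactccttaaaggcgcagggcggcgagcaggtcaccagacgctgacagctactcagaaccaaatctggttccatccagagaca
Hspa1b, chr17:34959189-34959488, minus strand: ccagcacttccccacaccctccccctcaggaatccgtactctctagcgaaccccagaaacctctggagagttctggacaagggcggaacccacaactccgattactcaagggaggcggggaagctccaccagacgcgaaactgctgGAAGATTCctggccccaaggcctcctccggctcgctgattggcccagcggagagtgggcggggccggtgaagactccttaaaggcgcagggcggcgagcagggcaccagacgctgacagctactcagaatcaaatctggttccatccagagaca
Hspb1, chr5:135887669-135887968, plus strand: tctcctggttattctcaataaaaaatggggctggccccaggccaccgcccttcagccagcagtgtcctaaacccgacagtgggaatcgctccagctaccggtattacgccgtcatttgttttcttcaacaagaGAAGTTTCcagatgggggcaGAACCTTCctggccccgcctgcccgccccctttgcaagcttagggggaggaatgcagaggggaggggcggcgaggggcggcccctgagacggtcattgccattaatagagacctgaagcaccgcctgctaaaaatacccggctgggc
The Hspa1a and Hspa1b windows were identical at 296 of 300 bases, and each held 1 match, beginning 104 bases before the start. Hspb1 held 2 matches, 117 and 97 bases before the start. Windows for Hspa4, Hspb7 and Dnajb1, the last with 2 annotated starts, held no match (0). A match is a description of the letters, and 15.1% of all 32851 promoter windows held at least 1. Hspa8, Hsp90aa1, Hsp90ab1 and Cryab had no entry in the promoter table.

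**Figure D2:**
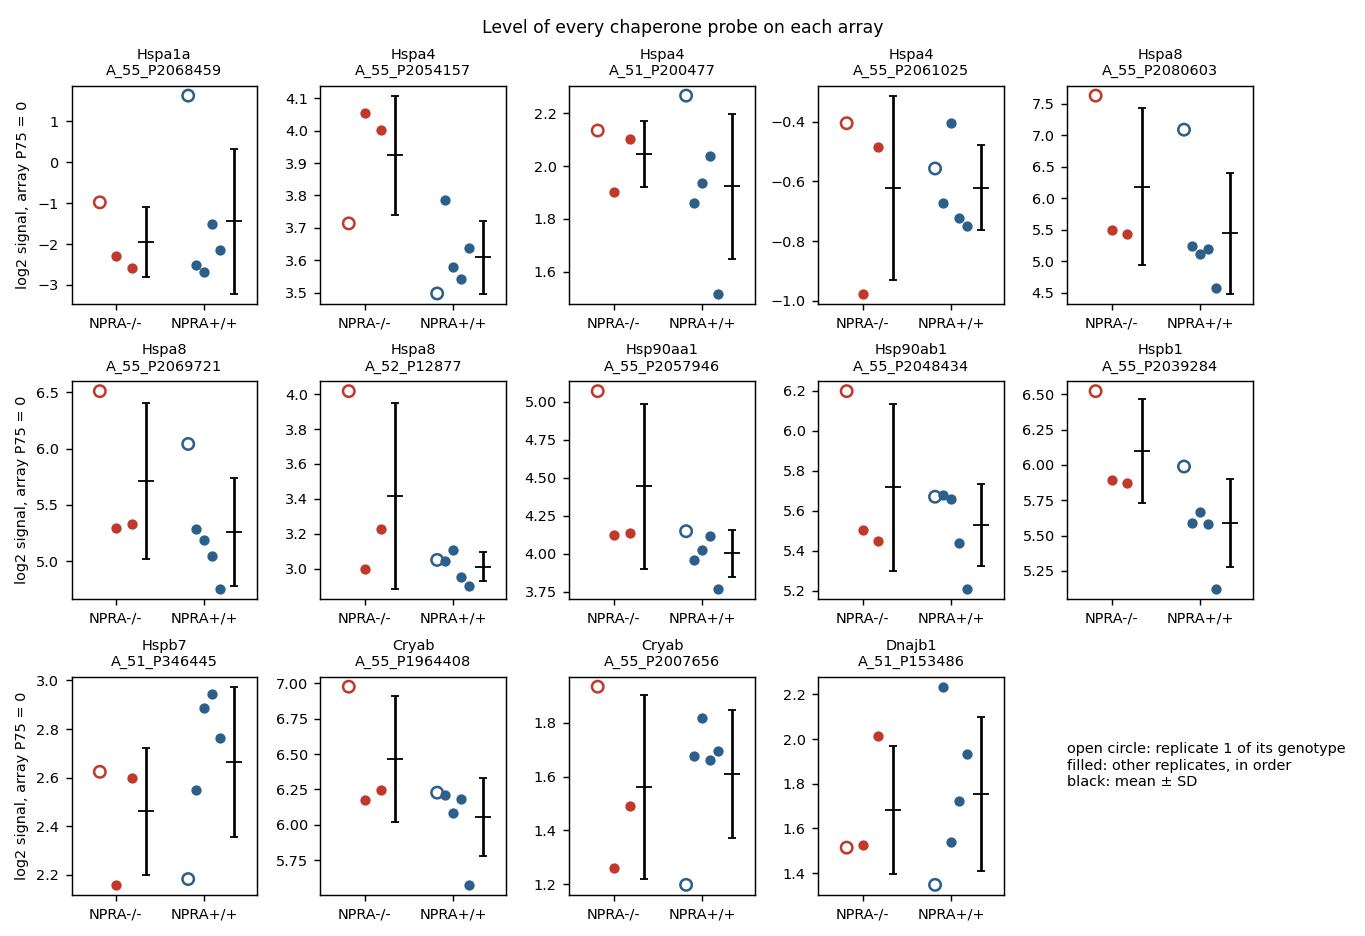
Level of each of the 14 chaperone probes on the 3 NPRA-/- arrays (red) and the 5 NPRA+/+ arrays (blue), as log2 signal with the array's 75th percentile at 0 and a separate vertical scale for each probe; open circles are replicate 1 of each genotype, black marks the mean ± SD. The genotypes overlap for every probe, and for Hspa8 and Hspa1a the spread comes mainly from the open circles.

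Hspa8 encodes HSC70, the constitutive HSP70 that also uncoats clathrin vesicles and feeds chaperone-mediated autophagy. Its brightest probe (A_55_P2080603) was at 7.63, 5.49 and 5.43 in NPRA-/- replicates 1 to 3, against 7.09, 5.24, 5.11, 5.19 and 4.59 in NPRA+/+ replicates 1 to 5. Replicate 1 of both genotypes was the highest of its genotype, 2.14 above the next NPRA-/- array and 1.85 above the next NPRA+/+ array, and the remaining arrays of both genotypes lay between 4.59 and 5.49. The second probe (A_55_P2069721) was at 6.51, 5.29 and 5.33 in NPRA-/- and at 6.04, 5.29, 5.19, 5.05 and 4.75 in NPRA+/+. The third (A_52_P12877) was at 4.02, 3.00 and 3.23 in NPRA-/- and at 3.05, 3.04, 3.11, 2.95 and 2.90 in NPRA+/+. On this dimmer probe NPRA-/- replicate 1 again stood out, while NPRA+/+ replicate 1 lay among the other NPRA+/+ arrays, so the probes of 1 gene disagreed on that array.

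Fitted changes of the Hspa8 probes were 0.74 ± 0.67, 0.45 ± 0.36 and 0.40 ± 0.22 (SE; limma, adjusted p = 0.592, 0.544 and 0.356). For the brightest probe the change was 0.02 ± 0.61 without NPRA-/- replicate 1 and 1.15 ± 0.53 without NPRA+/+ replicate 1 (adjusted p = 0.993 and 0.194). Without both it was 0.43 ± 0.20 (adjusted p = 0.218). After quantile normalization, which gives all arrays the same distribution of signals, the brightest probe was at 6.48, 5.52 and 5.50 in NPRA-/- and at 6.35, 5.31, 5.20, 5.35 and 4.95 in NPRA+/+. Replicate 1 thus remained the highest array of its genotype, by about 1 log2 unit in place of about 2.

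Hspa4, also called APG-2, belongs to the HSP110 group that releases ADP from HSP70. Its brightest probe (A_55_P2054157) had the smallest p of the 14 and was at 3.71, 4.06 and 4.00 in NPRA-/- replicates 1 to 3, against 3.50, 3.79, 3.58, 3.54 and 3.64 in NPRA+/+ replicates 1 to 5. NPRA-/- replicates 2 and 3 lay above all NPRA+/+ arrays, and NPRA-/- replicate 1 fell below NPRA+/+ replicate 2. The fitted change was 0.32 ± 0.14 (SE; 95% interval 0.00 to 0.63; limma, adjusted p = 0.250). It passed under 1 of 23 alternatives, limma's array weights, with 0.35 ± 0.09 and an adjusted p of 0.0211, under which 27.1% of all probes tested were called. Without replicate 1 of both genotypes its adjusted p was 0.0696 and within scan day 1 it was 0.114. The other probes of the gene had smaller changes. The probe A_51_P200477 was at 2.14, 1.90 and 2.10 in NPRA-/- and at 2.27, 1.86, 1.94, 2.04 and 1.52 in NPRA+/+, a change of 0.12 ± 0.18 (adjusted p = 0.761). The probe A_55_P2061025 averaged -0.62 ± 0.31 (SD, n = 3) in NPRA-/- and -0.62 ± 0.14 (SD, n = 5) in NPRA+/+ (adjusted p = 0.998).

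Dnajb1, the HSP40 that loads clients on HSP70 and is itself a heat shock factor target, was at 1.51, 1.52 and 2.01 in NPRA-/- replicates 1 to 3, against 1.35, 2.23, 1.54, 1.72 and 1.93 in NPRA+/+ replicates 1 to 5. The NPRA-/- levels lay within the NPRA+/+ range, and the fitted change was -0.07 ± 0.23 SE (limma, adjusted p = 0.901). Its replicate 1 arrays were the lowest of all 8, unlike those of Hspa1a and Hspa8.

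The HSP90 genes comprise an inducible form, Hsp90aa1, and a constitutive one, Hsp90ab1. Hsp90aa1 was at 5.07, 4.13 and 4.13 in NPRA-/- replicates 1 to 3, against 4.15, 3.96, 4.02, 4.12 and 3.77 in NPRA+/+ replicates 1 to 5. NPRA-/- replicate 1 lay alone, 0.93 above the next NPRA-/- array, and the other NPRA-/- arrays fell within the NPRA+/+ range. The fitted change was 0.44 ± 0.23 (SE; limma, adjusted p = 0.341) over all arrays and 0.13 ± 0.15 without NPRA-/- replicate 1 (adjusted p = 0.735). Hsp90ab1 was at 6.20, 5.50 and 5.45 in NPRA-/- and at 5.67, 5.68, 5.66, 5.44 and 5.21 in NPRA+/+. Its fitted change of 0.19 ± 0.21 (adjusted p = 0.675) rested on NPRA-/- replicate 1: without that array it was -0.05 ± 0.17 (adjusted p = 0.922), and after quantile normalization it was -0.17 ± 0.16 (adjusted p = 0.825).

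Among the small heat shock proteins, Hspb1, which encodes HSP25 in the mouse and protects actin filaments, had the smallest p. It was at 6.52, 5.89 and 5.88 in NPRA-/- replicates 1 to 3, against 5.99, 5.59, 5.67, 5.58 and 5.12 in NPRA+/+ replicates 1 to 5. All NPRA-/- arrays lay above NPRA+/+ replicates 2 to 5, and only NPRA+/+ replicate 1 overlapped them. The fitted change was 0.51 ± 0.23 (SE; 95% interval -0.02 to 1.04; limma, adjusted p = 0.271). With scaling by quantiles it was 0.15 ± 0.13 (adjusted p = 0.811), with levels of 5.82, 5.91 and 5.93 in NPRA-/- and 5.57, 5.69, 5.86, 5.83 and 5.70 in NPRA+/+. Within scan day 1, where genotype and slide coincided, it was 0.26 ± 0.09 (adjusted p = 0.126). In that fit 16.9% of all probes tested were called and 0 of the 14.

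Cryab encodes alpha-B crystallin, which binds desmin and titin in heart muscle and whose mutation causes a desmin-related cardiomyopathy in humans. Its bright probe (A_55_P1964408) was at 6.98, 6.17 and 6.24 in NPRA-/- replicates 1 to 3, against 6.23, 6.21, 6.08, 6.18 and 5.57 in NPRA+/+ replicates 1 to 5. Apart from a high NPRA-/- replicate 1 and a low NPRA+/+ replicate 5, the arrays lay within 6.08 to 6.24. The fitted change was 0.41 ± 0.24 (SE; limma, adjusted p = 0.382), while quantile normalization gave -0.080 ± 0.21 (adjusted p = 0.942). The dimmer Cryab probe (A_55_P2007656) was at 1.93, 1.26 and 1.49 in NPRA-/- and at 1.20, 1.68, 1.82, 1.66 and 1.69 in NPRA+/+, a change of -0.05 ± 0.20 (adjusted p = 0.927). The 2 probes had opposite signs and neither passed.

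Hspb7, a small heat shock protein of heart and skeletal muscle also called cvHsp, was the member with a negative change in the fit and under all 23 alternatives. It was at 2.62, 2.16 and 2.60 in NPRA-/- replicates 1 to 3, against 2.18, 2.55, 2.89, 2.94 and 2.76 in NPRA+/+ replicates 1 to 5. The ranges overlapped, since NPRA+/+ replicate 1 was nearly as low as NPRA-/- replicate 2. The change was -0.20 ± 0.21 (SE; limma, adjusted p = 0.643) and did not pass under any alternative (smallest adjusted p 0.164, with array weights). The Hspb7 probe was printed 10 times per array, and the SD of the log2 signal between single spots of 1 array was 0.06 to 0.17. The level, a mean over these spots, differed between arrays with an SD of 0.26 (n = 3) in NPRA-/- and 0.31 (n = 5) in NPRA+/+.

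Several members had their extreme levels on the replicate 1 arrays. For 6 of the 14 probes both replicate 1 arrays lay above the 6 other arrays: Hspa1a, 2 probes of Hspa8, and 1 probe each of Hspa4 (A_51_P200477), Hsp90aa1 and Hspb1. Over all probes tested this order was found for 20.2%, and for 20.9% of the brightest 20% of them. For 1 member probe, that of Dnajb1, both replicate 1 arrays lay below all others, as they did for 17.4% of all probes tested. After quantile normalization 4 of the 14 were highest on both replicate 1 arrays (Hspa1a, 2 of Hspa8 and 1 of Hspa4), against 16.3% of all probes. Cardiomyocyte marker genes moved with the same arrays. All 10 of 10 tested had both replicate 1 arrays above the others before quantile normalization, and 2 of 10 after it, and their summed scaled signal was 865 to 2208 in NPRA-/- and 457 to 1768 in NPRA+/+. Actc1, cardiac actin, was at 8.47, 6.95 and 6.97 in NPRA-/- and at 8.07, 6.69, 6.15, 6.61 and 6.06 in NPRA+/+. The part of these arrays' wider signal range, or of cell content, in the chaperone levels was not tested.

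**Figure D3:**
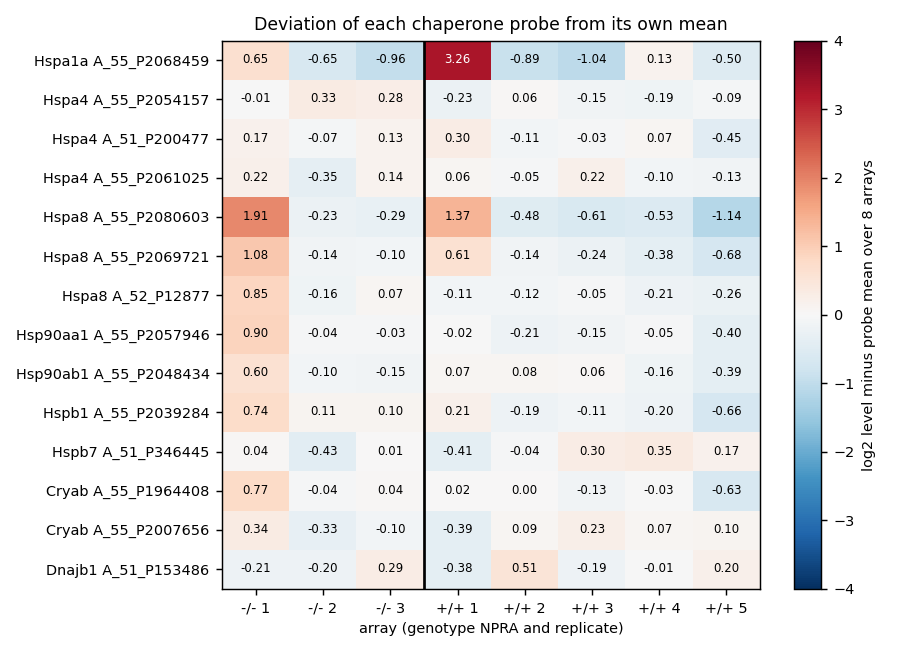
Deviation of each chaperone probe from its own mean over the 8 arrays, in log2 units, with NPRA-/- replicates 1 to 3 left of the black line and NPRA+/+ replicates 1 to 5 right of it. The strongest colours are Hspa1a on NPRA+/+ replicate 1 and the brightest Hspa8 probe on replicate 1 of both genotypes.

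NPRA+/+ replicate 1 exceeded all 7 others by 2.61 for Hspa1a, and by at least as much for 81 probes (0.229% of those tested), Hspa1a included. For the brightest Hspa8 probe, the gap of 1.85 over the other NPRA+/+ arrays was reached by 2.71% of probes. The 5 genes whose levels were most like those of Hspa1a, of 17655 compared by the root mean square difference of levels centred on each gene's mean over 8 arrays, were Phgr1 (0.16), Myl10 (0.18), Krt78 (0.19), Cd244a (0.21) and Cass4 (0.25). Krt78, a keratin gene, was at -3.56, -4.86 and -5.09 in NPRA-/- and at -1.36, -4.86, -5.09, -4.07 and -4.50 in NPRA+/+. Cd244a, a receptor of natural killer cells, was at 2.54, 1.63 and 1.31 in NPRA-/- and at 4.89, 1.22, 0.83, 1.98 and 1.38 in NPRA+/+. The array order of these genes follows from their choice by likeness to Hspa1a and is a description. No member was among these genes. Hspa8 came nearest of the members, with a difference of 0.93 and rank 649, while Dnajb1, at 1.54, ranked 13582.

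**Figure D4:**
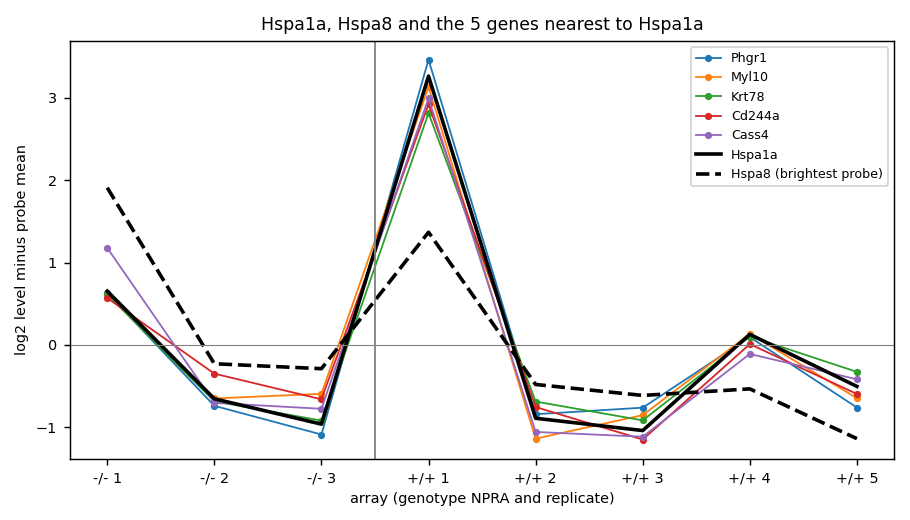
Log2 level minus each probe's mean on the 8 arrays (NPRA-/- left of the grey line, NPRA+/+ right of it) for Hspa1a and the brightest Hspa8 probe (black) and the 5 genes nearest to Hspa1a (colours). The 5 genes, chosen for their likeness to Hspa1a, peak on NPRA+/+ replicate 1, while Hspa8 peaks on replicate 1 of both genotypes.

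The rest of the folding network also gave no call. Of 84 further genes in 7 groups 83 were tested with 1 probe each, all but Dnajb5, and limma called 0 of them. At an unadjusted p under 0.05 there were 1 higher (Hsf5) and 1 lower (Dnajc8). Hsf5 passed the filter on dim probes through its NPRA-/- arrays alone, so its place among the tested genes favoured a higher value there. The NPRA-/- arrays lay clear of the NPRA+/+ arrays for 6 of the 83 (7.23%), against 15.4% of all probes tested. The median fitted change of the 83 was 0.12, beside 0.21 over all probes tested and 0.05 over the brightest 20% of them.

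By group, the 7 other small heat shock and crystallin genes had a median change of 0.06. Hspb6, HSP20, was at 5.63 ± 0.64 (SD, n = 3) in NPRA-/- and 5.03 ± 0.55 (SD, n = 5) in NPRA+/+ (limma, adjusted p = 0.423), and Hspb2, which lies next to Cryab in the genome, at 3.03 ± 0.20 and 3.23 ± 0.34 (adjusted p = 0.657). The 8 relatives of HSP70 and HSP110 had a median of 0.13. Hspa13 was at 0.42 ± 0.06 in NPRA-/- and 0.22 ± 0.07 in NPRA+/+, and Hspa14, a ribosome-associated HSP70, at 1.89 ± 0.08 and 1.60 ± 0.17 (adjusted p = 0.357 and 0.287). The genotypes did not overlap for either, and neither passed.

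Of 10 J domain genes 9 were tested, with a median of 0.16. Dnajc8, a J domain protein associated with splicing, had the smallest p of the 83 genes and was the gene lower in NPRA-/- at an unadjusted p under 0.05. It was at 2.04, 2.36 and 2.13 in NPRA-/- replicates 1 to 3, against 2.97, 2.76, 2.75, 3.70 and 3.68 in NPRA+/+ replicates 1 to 5. The genotypes did not overlap, NPRA-/- being lower, with a fitted change of -0.99 ± 0.27 (SE; limma, adjusted p = 0.109). Dnaja1 averaged 3.76 ± 0.12 in NPRA-/- and 3.51 ± 0.13 in NPRA+/+ (adjusted p = 0.341).

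The 20 exchange factors, HSP90 co-chaperones and folding partners had a median of 0.08. Fkbp5, an immunophilin of steroid receptor complexes, was at 2.09 ± 0.23 in NPRA-/- and 1.76 ± 0.27 in NPRA+/+, and Aarsd1 at 2.59 ± 0.06 and 2.28 ± 0.22 (adjusted p = 0.388 and 0.320). The 18 mitochondrial and endoplasmic reticulum chaperones had a median of 0.13. Hsp90b1, GRP94, was at 4.68 ± 0.50 in NPRA-/- and 4.17 ± 0.24 in NPRA+/+, and Hspa9, mortalin, at 4.77 ± 0.17 and 4.50 ± 0.11 (adjusted p = 0.284 and 0.313). The 14 TRiC and prefoldin subunits also had a median of 0.13, with Cct4 at 2.34 ± 0.36 in NPRA-/- and 1.95 ± 0.10 in NPRA+/+ and Pfdn2 at 0.90 ± 0.15 and 0.63 ± 0.11 (adjusted p = 0.264 and 0.295). Hspa9, Cct4 and Aarsd1 did not overlap between the genotypes, which with Hspa13, Hspa14 and Dnajc8 makes the 6.

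Among 7 heat shock factors and regulators (median 0.21), Hsf1, the main activator of the stress response, was at 2.20, 2.81 and 2.74 in NPRA-/- replicates 1 to 3, against 2.19, 2.96, 3.11, 2.77 and 3.00 in NPRA+/+ replicates 1 to 5 (adjusted p = 0.663). Hsf1 was thus lowest on the replicate 1 arrays, where Hspa1a was highest. It was named after its values were seen, and a relation between these genes was not tested. Over all probes tested, both replicate 1 arrays were lowest for 17.4% and highest for 20.2%. Hsf5, a factor known from the testis, was close to background: its spot was well above background in 3 of 3 NPRA-/- and 0 of 5 NPRA+/+ samples. Since it was tested only through its NPRA-/- arrays, a higher value there was favoured in advance, and its change is a description. The genotypes overlapped, with NPRA-/- replicate 3 at -6.04 below NPRA+/+ replicate 1 at -5.91. For each NPRA+/+ array the higher of the probe's own signal and the dimmest signal still well above background was taken. On that footing the mean signal in NPRA-/- was 1.64-fold that of NPRA+/+, a value without an error. On the measured levels limma gave an adjusted p of 0.117. Hif1a averaged -0.09 ± 0.56 (SD, n = 3) in NPRA-/- and -1.52 ± 2.19 (SD, n = 4) in NPRA+/+ (adjusted p = 0.526), the spot of NPRA+/+ replicate 4 being dropped as an outlier.

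**Figure D5:**
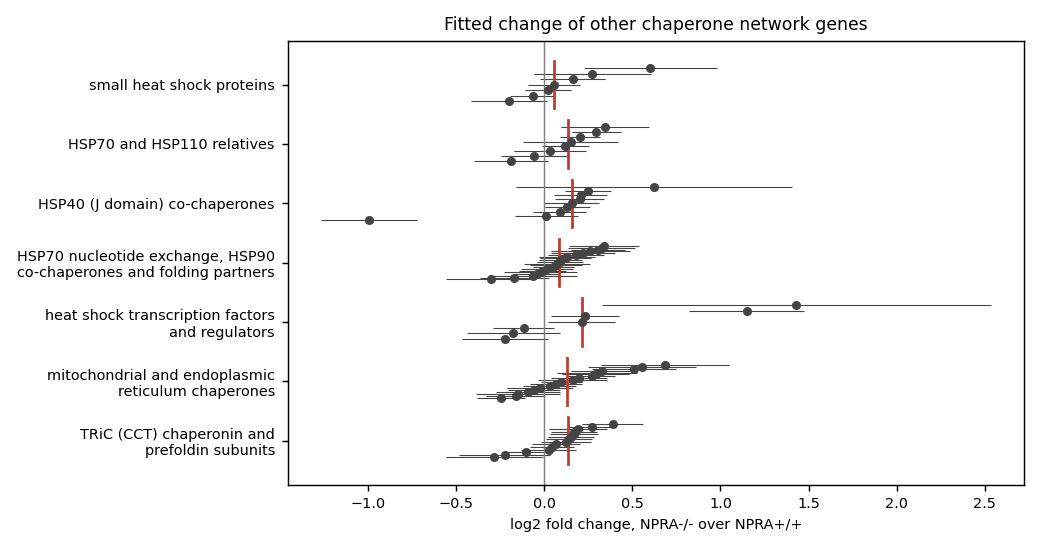
Fitted log2 fold change, NPRA-/- over NPRA+/+, of the 83 tested chaperone network genes by group; points are limma estimates from all 8 arrays with their SE, red lines the medians of the groups (0.06 to 0.21). None of the 83 passed the threshold, and Dnajc8 at -0.99 stands lowest.

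Immediate early genes, which respond to handling of tissue within minutes, were not called either (0 of 10), with a median change of -0.17, and Fos was at -1.11 ± 0.42 (SD, n = 3) in NPRA-/- and -0.61 ± 0.30 (SD, n = 5) in NPRA+/+ (limma, adjusted p = 0.294). All 10 cardiomyocyte markers were well above background on every array, among them Actc1 and Myl2, ventricular myosin light chain (7.23 ± 0.81 in NPRA-/- and 6.62 ± 0.74 in NPRA+/+). Of all probes, 79.5% (NPRA+/+ replicate 1) to 92.6% (NPRA-/- replicate 2) were well above background on an array. Being so is therefore no check of the tissue label. The atrial marker Myl4 was at 5.19, 0.81 and 4.86 in NPRA-/- replicates 1 to 3, against 3.61, 2.58, 0.02, 5.29 and 4.76 in NPRA+/+ replicates 1 to 5. Nppa, also of the atrial list, was at 5.53 ± 0.17 in NPRA-/- and 5.41 ± 0.18 in NPRA+/+. How much atrial tissue each sample held was not tested. Over 13 cell type lists limma called 1 gene, Msln of the mesothelium, at -1.42 ± 0.66 (SD, n = 3) in NPRA-/- and -3.90 ± 0.48 (SD, n = 5) in NPRA+/+ (adjusted p = 0.0498). Its call was lost under 18 of 23 alternatives, with adjusted p from 0.00238 to 0.451 and a change of 1.87 to 2.75. The summed scaled signal of the 6 tested mesothelial markers was 1.19 to 1.75 in NPRA-/- and 0.69 to 1.00 in NPRA+/+, and that of 8 fibroblast markers 104 to 135 in NPRA-/- and 91.7 to 97.1 in NPRA+/+. That of 5 Schwann cell markers was 1.84 to 2.02 in NPRA-/- and 1.32 to 1.78 in NPRA+/+. The ranges of the other cell type lists overlapped between the genotypes. The part of other cell types in the chaperone levels was not tested.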

How the data were processed

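The samples were 3 NPRA-/- and 5 NPRA+/+ myocardium RNAs, each labelled with Cy3 and hybridised to 1 array. Scanner output was read by the authors with Agilent Feature Extraction, version 11.0.1.1 by the submitters' processing notes and per the file headers, as linear intensity for each spot, background-subtracted within the array and not scaled between arrays. The deposited flags of 0 or 1 mark outlying, saturated or well above background spots. The deposited series table holds log2 values of unstated normalization whose columns all have a median of 7.04. They rank probes as each array's scanner values do (Spearman's rho at least 0.999), so its scale, direction and lack of gene centring are settled. Sorted, the columns hold nearly the same values (median gap to their mean 0, largest 0.48), as quantile normalization gives. Its fit is thus no separate check on that alternative. No other value columns were left aside (0).

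Control and outlier spots were left out (saturated spots: 0), log2 signals of the spots of 1 probe were averaged and each array's 75th percentile over its spots was subtracted. Probes well above background (at least a share of 0.5 of spots) on at least 3 arrays were tested (35329). RefSeq names (GRCm38.p6) matched 27234 of 39429 probes to 1 symbol and 12195 to none. The design names another build, so no probe coordinates are given. The genotype term was fitted in R 4.3.3 by limma 3.58.1 (lmFit and eBayes), with two-sided p-values adjusted by Benjamini and Hochberg's method across the probes tested and a threshold of 0.05. Lists use a gene's probe with the highest mean. Named were all members, of each network list the calls and the 2 genes with the smallest p, of cell type lists up to 2 of the brightest genes, and the 5 genes nearest to the most variable member (clone names left out); the non-overlapping genes and Hsf1 were named after their values were seen. Members and lists were chosen with earlier results of these data known.

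Across probes, samples with the same repetition number deviated together from their genotype means (r = 0.63, 0.28 and 0.36, all above 0.1). Yet NPRA-/- replicates 2 and 3 correlated positively with each of NPRA+/+ replicates 2 to 5 (0.12 to 0.36). Unequal numbers reached 0.33, and replicate 1 against any other number was negative (-0.60 to -0.16). Where replicate 1 lies far out, the other arrays of its genotype deviate from the mean together. These correlations are therefore no evidence of pairing. The replicate block, by repetition number and by source name number, is kept only as an alternative. In simulated data with 35329 probes and 3 and 5 arrays, limma called 42%, 70%, 90% and 94% of 50 probes changed by 1, 2, 3 and 4 log2 units, and 12 of 160 calls were false. The simulated noise was independent between probes and arrays, without the shared deviation of the replicate 1 arrays. These rates therefore need not hold for the measured arrays. The number of arrays limits the precision.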

Additional observations from a re-analysis of the deposited data

Results flagged for a closer look

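Over the 5 NPRA+/+ arrays, 14 member probes were examined for an array whose gap to its nearest neighbour takes up most of the group's range, and 4 were found. Chance gives about 1 in 20, but over all probes tested 14.2% met the same criterion on these arrays, and 78.7% of those did so on NPRA+/+ replicate 1. Hspa1a was at 1.63 in NPRA+/+ replicate 1, with the next array at -1.50. The brightest Hspa8 probe was at 7.09 in the same array, with the next at 5.24. The dimmer Cryab probe was at 1.20 there, below the next at 1.66. The bright Cryab probe was at 5.57 in NPRA+/+ replicate 5, below the next at 6.08. Thus 3 of the 4 were on NPRA+/+ replicate 1, in either direction, and share that array. The NPRA-/- group, with 3 arrays, was not examined in this way.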

How the results depend on the processing

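Under 23 alternatives, 22 planned and 1 added after seeing the data (without replicate 1 of both genotypes), 0 of 14 member probes were called except with array weights (1, Hspa4). Network genes called were 0 except 1 within scan day 1 and 1 without replicate 1 of both genotypes (Hsf5 each, which passed the filter on dim probes through NPRA-/- alone, being well above background on 0 of 5 NPRA+/+ arrays), 5 with array weights (Hspa13, Hspa14, Dnajc8, Hsf5 and Clpb), and 0 to 1 when 1 array was left out (Hsf5, without NPRA+/+ replicate 1). Probes called over the whole array were 123, and 0 under 16 alternatives, 193 with no filter on dim probes, 3 with probes well above background on all 8 arrays, 22 with the source name block, 5979 within scan day 1, 9557 with array weights, 4088 without NPRA+/+ replicate 1 and 4134 without replicate 1 of both genotypes. With the replicate block, by repetition number or source name number, 0 members and 0 network genes were called, and the block changed no member's call; Hspb1 had 0.35 and 0.64.

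Of 322 member values under alternatives 27 changed sign, none of them past the threshold; the cause was not tested. Quantile normalization gave -0.080 for the bright Cryab probe and -0.17 for Hsp90ab1. The deposited table, whose columns also nearly share 1 distribution, gave -0.10 and -0.18. Scaling to the median gave -0.10 for Hsp90ab1 and -0.17 for the Hspa4 probe A_51_P200477. Scan day as a block, or scan day 1 alone, gave -0.19 for Hsp90ab1 and 0.16 for Hspa1a. Both changes rest on scan day 1, where genotype and slide coincided. Array weights gave -0.068, and leaving out replicate 1 of both genotypes -0.02, for Hsp90ab1. With slide, inferred from scan date and time, as a random block the dimmer Cryab probe was at 0.068. The Hspa4 probe A_55_P2061025 was then at 0.067. That Hspa4 probe was also at 0.043 with normexp, 0.063 with the replicate block by source name number, and 0.050 with NPRA+/+ arrays of source name number 1 averaged. When 1 array was left out, or both of replicate 1, values ran from -1.0 to 0.25 for Hspa1a, -0.053 to 0.32 for Hsp90ab1, -0.34 to 0.10 for the dimmer Cryab probe, -0.24 to 0.049 for Dnajb1 and -0.11 to 0.18 for A_55_P2061025. The deposited spot signals used for normexp were medians.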
